A study of Mus musculus with 6 samples.

Results

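G2/M and mitosis genes were described in LD-1, a mouse cholangiocarcinoma (bile duct cancer) cell line, with and without hepatocyte growth factor (HGF). The set holds 42 genes chosen by symbol as a module of late cell cycle genes, out of 28212 genes in the table. All 42 were found and all 42 passed the low-count filter. Poly(A) RNA of 6 libraries was sequenced, 3 labelled HGF and 3 labelled Control, and both groups are the same line with no other treatment named. The labels also give the source as cholangiocarcinoma tissue, and the protocol speaks of adipose RNA, so whether every library holds cultured cells alone cannot be read from them. The labels give no dose of HGF, no time of exposure and no synchronisation or serum condition, and do not say that replicates were separate cultures. What the p-values measure is thus the scatter of these libraries, possibly only a technical one. The stated purpose was to see how HGF alters expression in these cells.

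HGF binds Met, a receptor tyrosine kinase known for driving growth and motility of epithelial cells. Genes of G2 and mitosis are transcribed late in the cell cycle, from promoters on which the MuvB complex binds the cell cycle homology region (CHR) and NF-Y binds CCAAT boxes, and B-Myb and FoxM1 join MuvB there. Their products switch on cyclin-dependent kinase 1 (CDK1), build the spindle, hold anaphase back until every chromosome is attached, and then divide the cell. Many of the transcripts are widely used as markers of proliferating cells.

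Each of these motifs stood in most promoters of the set, and 4 promoters that hold both are shown. Ccnb2 did not pass the test, Cenpf and Kif23 fell, and Bub3 rose. They come from promoters picked for the B cyclins and for the lower and higher members with the smallest p. Of those picked, Ccnb1 (not called, 2 CCAAT and 0 CHR matches) and Bub1b (higher, 1 of each) are not printed. RefSeq promoter windows (GRCm38.p6, 250 bases before to 50 after the annotated start, 300 in all) were available for 34 of the 42 members. TTTGAA, the core of the CHR, or its reverse complement stood in 25 of these 34 windows (73.5%), against 18.1% of the windows of 27025 genes. CCAAT on either strand stood in 25 of 34 (73.5%, against 37.9%), and 2 or more copies in 17 of 34 (50.0%, against 12.2%). Both motifs stood in 21 of 34 (61.8%, against 7.12%). The E2F core TTCCCGC, searched in the same way, stood in 0 of 34 windows and in 4.66% of all. Each sequence below runs 5′ to 3′ on the strand of the gene, and capitals mark TTTGAA and CCAAT on either strand (TTCAAA and ATTGG on the reverse), which do not overlap in these windows.
Ccnb2, chr9:70421505-70421804, minus strand: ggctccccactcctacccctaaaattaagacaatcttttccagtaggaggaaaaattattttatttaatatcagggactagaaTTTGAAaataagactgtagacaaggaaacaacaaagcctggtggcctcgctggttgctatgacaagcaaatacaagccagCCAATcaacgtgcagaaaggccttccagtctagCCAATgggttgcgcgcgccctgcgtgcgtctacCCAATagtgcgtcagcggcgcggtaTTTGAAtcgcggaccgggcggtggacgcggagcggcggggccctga
Cenpf, chr1:189688037-189688336, minus strand: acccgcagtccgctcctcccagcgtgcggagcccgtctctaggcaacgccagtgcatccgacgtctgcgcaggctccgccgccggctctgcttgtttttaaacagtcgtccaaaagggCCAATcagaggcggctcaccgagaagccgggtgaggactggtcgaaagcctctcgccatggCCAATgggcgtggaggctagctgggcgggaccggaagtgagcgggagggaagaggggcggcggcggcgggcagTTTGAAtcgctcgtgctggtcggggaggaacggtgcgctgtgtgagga
Kif23, chr9:61946750-61947049, minus strand: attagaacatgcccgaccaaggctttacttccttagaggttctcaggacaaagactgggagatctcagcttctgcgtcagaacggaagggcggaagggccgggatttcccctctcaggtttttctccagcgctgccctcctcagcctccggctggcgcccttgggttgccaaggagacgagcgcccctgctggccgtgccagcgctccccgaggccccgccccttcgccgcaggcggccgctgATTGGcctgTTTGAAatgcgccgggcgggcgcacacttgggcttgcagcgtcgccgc
Bub3, chr7:131560120-131560419, plus strand: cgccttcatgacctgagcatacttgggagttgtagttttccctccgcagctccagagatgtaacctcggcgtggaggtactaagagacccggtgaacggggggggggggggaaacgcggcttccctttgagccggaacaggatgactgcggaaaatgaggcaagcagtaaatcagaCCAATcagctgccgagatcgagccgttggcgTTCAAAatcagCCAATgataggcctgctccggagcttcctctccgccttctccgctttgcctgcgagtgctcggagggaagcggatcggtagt
In Ccnb2 the 3 CCAAT boxes lay 33 bases apart. TTTGAA began 4 bases after the annotated start of Ccnb2 and 2 bases after that of Cenpf and of Kif23. The CHR core was about as frequent in the windows of members that fell (12 of 17, 70.6%) as in those of members that were not called (10 of 14, 71.4%), and it stood in 3 of 3 windows of members that rose. CCAAT stood in 10 of 17 windows of members that fell (58.8%), 12 of 14 of those not called (85.7%) and 3 of 3 of those that rose. It stood in 2 or more copies in 35.3%, 64.3% and 66.7% of them, and together with the CHR core in 47.1%, 71.4% and 100%. A match of letters is a description and no evidence of binding.

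Many of the late cell cycle genes were slightly lower with HGF, and few were higher. Of 42 members, 21 fell and 3 rose (edgeR quasi-likelihood test, Benjamini-Hochberg adjusted p under 0.05 over 17322 genes), where 19.3% of all tested genes fell and 19.1% rose. As shares, 50.0% of the members fell and 7.14% rose, and 38.5% of all tested genes were called in either direction. The changes were small: 17 of the 24 called members had an absolute log2 fold change under 0.5, and none reached 1. The median log2 fold change of the members, HGF minus control, was -0.17, against -0.02 over all tested genes, and 32 of 42 members were below 0. In CPM (counts scaled to library size, here with TMM) the HGF libraries all lay below the controls in 21 members, where 26.5% of tested genes did so, and all above in 4, where 24.9% did. In cultures of mixed cell cycle phase, fewer cells in G2 or mitosis and less of these transcripts per cell cannot be told apart.

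The size of this result rests on the scaling of the libraries. Scaling by library totals in place of TMM moved the median of all genes from -0.02 to -0.13, and 28 members then fell and 1 rose, where 28.5% and 13.6% of tested genes did. The members lay below the median of all genes by the same amount in both fits (-0.14 and -0.14 on the log2 scale). A change of scaling moves all genes nearly alike, so this equality follows from the arithmetic and tests nothing. Every one of the 24 called members kept its sign under all 19 alternative settings, and none of the 42 was called in both directions. Of the 21 lower members, 14 stayed called under every setting.

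**Figure D1:**
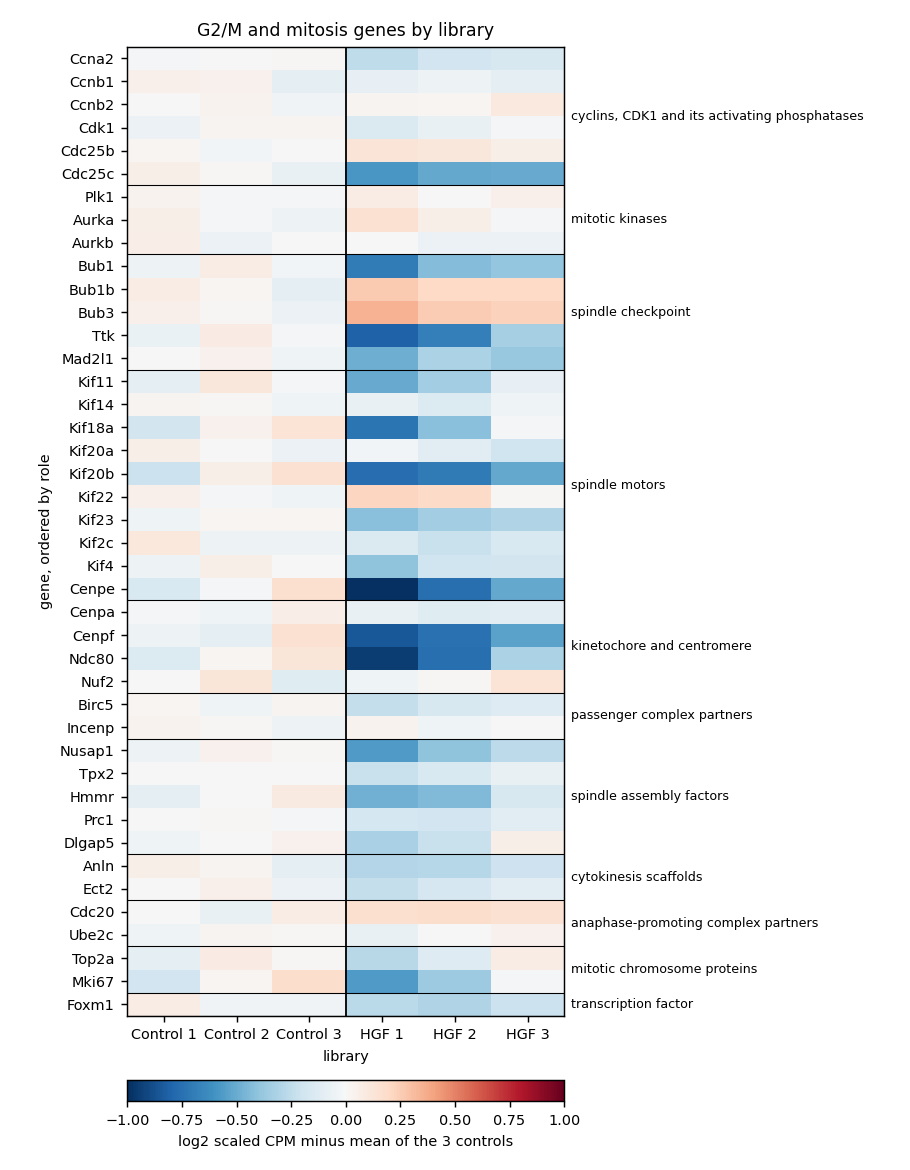
Heat map of the 42 members (rows, by role) in the 6 libraries (columns), coloured by log2 scaled CPM minus the mean of the 3 controls. Blue cells in the HGF columns mark lower values: the HGF libraries all lay below the controls in 21 members and all above in 4.

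The HGF libraries differed among themselves in the same genes. HGF 1 was the lowest HGF library in 25 of 42 members and HGF 3 the highest in 28. The median member stood at -0.24 in HGF 1, -0.18 in HGF 2 and -0.10 in HGF 3 relative to the control mean (log2 scaled CPM), and at -0.01 to 0.01 in the controls. All 3 HGF libraries thus had a lower median than any control, with HGF 3 nearest. The summed FPKM of the 42 members was 1194, 1193 and 1228 with HGF and 1341, 1352 and 1309 in controls. Without HGF 3, 23 members fell and 5 rose, where 17.0% and 17.7% of all tested genes did. Cdc25b and Kif22 then joined Bub1b, Bub3 and Cdc20. Without HGF 1, 19 members fell and 3 rose, where 15.7% and 16.4% of all tested genes did.

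Among the genes that start mitosis, the abundant CDK1 and B cyclin transcripts did not pass the test, while cyclin A2 and Cdc25c fell. Ccna2 (ENSMUSG00000027715, chromosome 3, 36564865 to 36572150) encodes cyclin A2, which acts in S phase and G2. It had an FPKM (the authors' fragment count divided by transcript length and library size) of 37.6, 39.0 and 40.0 with HGF and 47.5, 48.2 and 47.6 in controls, so the groups were apart, and its log2 fold change was -0.20 ± 0.04 (SE; adjusted p = 0.00365). Cdc25c encodes a phosphatase that removes the inhibitory phosphates from CDK1. Its FPKM was 5.21, 5.45 and 5.50 with HGF and 8.69, 8.49 and 7.80 in controls, also apart, with a log2 fold change of -0.53 ± 0.06 (adjusted p = 2.29e-04). Its relative Cdc25b, which acts on the same substrate, stood at 48.7, 47.8 and 46.2 with HGF and 48.0, 47.1 and 47.0 in controls, and its log2 fold change of 0.10 ± 0.04 missed the threshold (adjusted p = 0.0647), which it passed with DESeq2 (0.12, adjusted p = 0.0423), with median-of-ratios size factors (0.12, adjusted p = 0.0425) and without HGF 3 (0.14, adjusted p = 0.0271), while with library totals it was at 0.00 (adjusted p = 0.991). Cdk1 itself had an FPKM of 32.6, 33.8 and 35.6 with HGF and 36.8, 39.5 and 38.5 in controls. Those FPKM values were all lower with HGF, but the TMM-scaled counts overlapped, and the log2 fold change of -0.08 ± 0.05 missed the threshold (adjusted p = 0.243), which it passed under 5 of 19 alternatives (with library totals -0.18, adjusted p = 0.0183). For the B cyclins, the activating partners of CDK1 in mitosis, log2 fold changes were -0.07 ± 0.05 for Ccnb1 and 0.05 ± 0.04 for Ccnb2 (adjusted p = 0.237 and 0.403). With library totals Ccnb1 was called lower (-0.18, adjusted p = 0.0130) and Ccnb2 turned to -0.05 without a call. Each has a processed copy in the table, Ccnb1-ps with 100 to 216 counts and Ccnb2-ps with 21 to 53 per library, so a few reads could be split between them. Foxm1, the transcription factor of many of these genes, fell: its FPKM was 19.1, 18.5 and 19.8 with HGF and 25.8, 24.2 and 23.6 in controls (log2 -0.26 ± 0.05, adjusted p = 0.00245).

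The mitotic kinase genes Plk1, Aurka and Aurkb gave 0 calls with edgeR and TMM, 0 at an unadjusted p under 0.05 and 0 with DESeq2, but 1 with library totals, where Aurkb was lower (-0.14, adjusted p = 0.0253). Of all tested genes, 38.5% were called in either direction with edgeR and TMM, and 28.5% fell with library totals. Plk1, the polo-like kinase of mitotic entry and spindle assembly, had an FPKM of 86.0, 81.1 and 84.2 with HGF and 89.2, 87.0 and 85.0 in controls. Its log2 fold change was 0.04, with a 95% interval of -0.07 to 0.15. Aurka, the centrosomal Aurora kinase, had a log2 fold change of 0.06 (interval -0.08 to 0.21), and Aurkb, the Aurora kinase of the passenger complex at centromeres, -0.04 (interval -0.16 to 0.09). Aurkb was called lower under 3 of the 19 alternatives, the other two with limma on FPKM. With library totals the values of Plk1 and Aurka turned below 0 and the median of the 3 genes moved from 0.04 to -0.06. The groups overlapped in the scaled counts of all 3 genes. Intervals are the fold change plus or minus its SE times the t quantile for 4 residual degrees of freedom, and they leave room for small changes in either direction. They are wider than the edgeR p-values imply. For Cdc25b the interval was -0.004 to 0.207, though its unadjusted edgeR p was 0.0266.

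The spindle checkpoint genes split, and every measured member of this group was called. Calls were common in both directions: 38.5% of all tested genes were called, 19.3% lower and 19.1% higher. The checkpoint delays anaphase by holding the activator of the anaphase-promoting complex, CDC20, in a complex with the products of Mad2l1, Bub1b and Bub3. Bub3 (ENSMUSG00000066979, chromosome 7, 131560222 to 131571895) rose, with an FPKM of 27.7, 25.7 and 25.5 with HGF and 24.1, 23.6 and 22.0 in controls (log2 0.28 ± 0.05, adjusted p = 0.00197). Bub1b, which encodes BubR1, rose from 59.0, 57.5 and 52.0 in controls to 63.0, 59.9 and 60.1 with HGF (log2 0.22 ± 0.05, adjusted p = 0.00738). The HGF libraries were above every control in both genes, in FPKM and in scaled counts. Mad2l1, which encodes MAD2, fell: its FPKM was 6.10, 6.83 and 6.57 with HGF and 9.11, 9.50 and 8.76 in controls (log2 -0.39 ± 0.06, adjusted p = 7.76e-04). Bub1 (chromosome 2, 127801122 to 127831865), a kinase that recruits the other checkpoint proteins to kinetochores, fell from 23.3, 25.6 and 23.2 to 13.9, 16.6 and 17.2 (log2 -0.50 ± 0.08, adjusted p = 0.00134). Ttk, which encodes the checkpoint kinase MPS1, fell from 6.33, 7.10 and 6.43 to 3.54, 3.84 and 4.92 (log2 -0.59 ± 0.12, adjusted p = 0.00397). No HGF library reached the lowest control in these 3 lower genes.

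Cdc20 was the only other member that rose, at the highest FPKM of the set. It stood at 114, 115 and 113 with HGF and at 109, 105 and 113 in controls (log2 0.16 ± 0.04, adjusted p = 0.0178). HGF 3 (113.2) and Control 3 (112.9) nearly met in FPKM. Cdc20 was called under 11 of the 19 alternatives, Bub1b under 15 and Bub3 under 18, and with limma on log2(FPKM + 1) Bub3 alone of the 3 was called. Without HGF 2 the log2 fold change of Cdc20 was 0.16 (adjusted p = 0.0800), and without Control 2 it was 0.13 (adjusted p = 0.0742). It shrank to 0.06 (adjusted p = 0.271) with library totals, 0.07 (adjusted p = 0.170) with limma on log2(FPKM + 1) and 0.10 (adjusted p = 0.141) with a GC correction. Bub1b likewise went to 0.12 with library totals and with limma on log2(FPKM + 1), without a call (adjusted p = 0.0740 and 0.0932). Ube2c, the ubiquitin-conjugating enzyme that works with the anaphase-promoting complex, had a log2 fold change of -0.01 ± 0.04 (adjusted p = 0.893). The 3 members called higher with TMM scaling encode parts of the mitotic checkpoint complex, while the gene of its remaining part, Mad2l1, fell. This grouping was noticed after the values were seen.

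**Figure D2:**
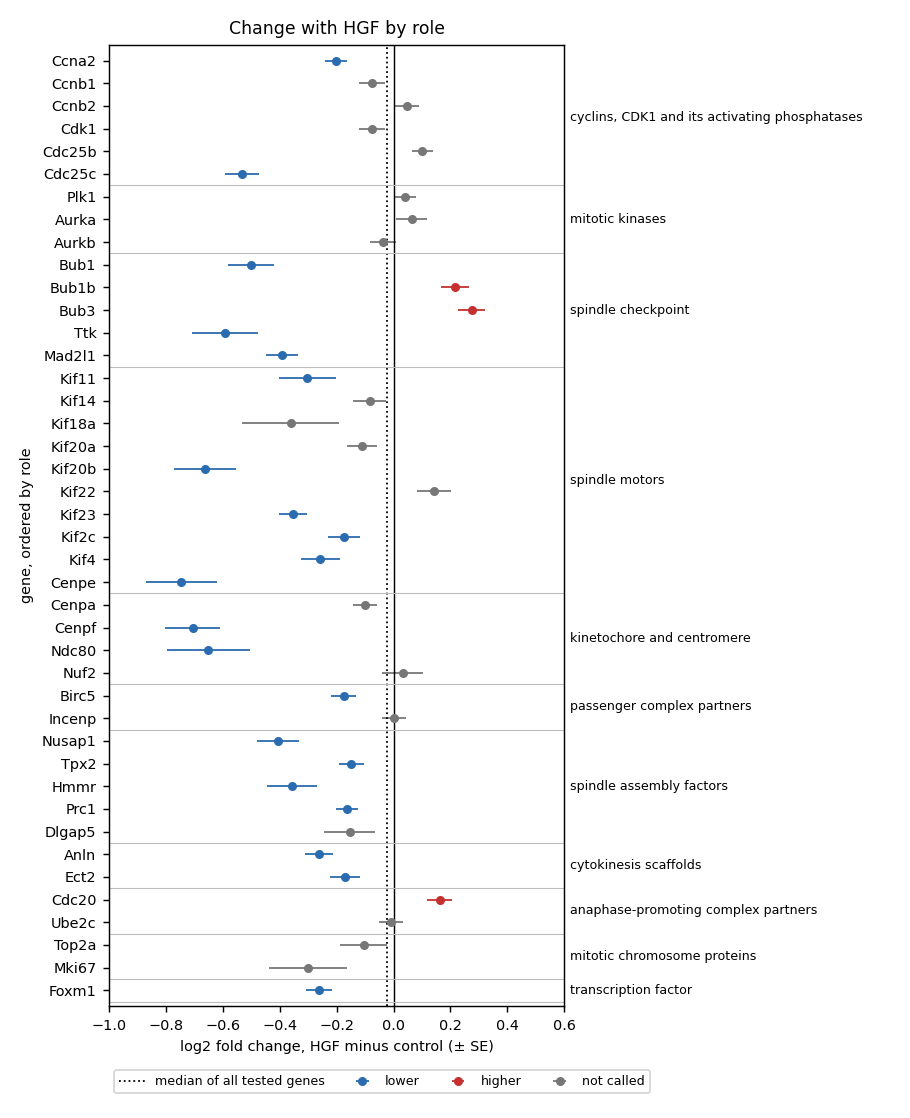
Log2 fold change of each member, HGF minus control, with its SE (bars), ordered by role and coloured by call. Points for the mitotic kinases lie between -0.04 and 0.06, whereas Cenpe, Cenpf, Kif20b and Ndc80 lie at or below -0.65 and only Bub1b, Bub3 and Cdc20 were called higher.

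Among the spindle motors, 6 of 10 kinesin genes fell and 0 rose with edgeR, as with DESeq2, with a median log2 fold change of -0.28. At an unadjusted p under 0.05, 1 was higher. With all libraries, 19.3% of all tested genes fell and 19.1% rose with edgeR, and 11.1% and 12.3% with DESeq2. The lower count of the motors was 4 without HGF 2 or without Control 1 and 3 without Control 2. Without HGF 3 it was 6 with 1 higher. Of all tested genes, 13% fell without HGF 2, 14.9% without Control 1, 13.9% without Control 2 and 17% without HGF 3. Without HGF 3, 17.7% rose. Cenpe (ENSMUSG00000045328, chromosome 3, 135212537 to 135273611), the kinesin that carries chromosomes to the spindle equator, had the lowest value of all 42 members. Its FPKM was 2.35, 2.78 and 3.30 with HGF and 4.52, 5.05 and 5.55 in controls (log2 -0.75 ± 0.12, adjusted p = 0.00173). Kif20b, a kinesin of late cytokinesis, fell from 3.55, 4.32 and 4.52 to 2.27, 2.34 and 2.70 (log2 -0.66 ± 0.11, adjusted p = 0.00151). In both genes every HGF library lay below every control, and HGF 3 was the nearest to them. Kif23, which encodes the motor of centralspindlin at the midzone, fell from 9.66, 10.2 and 9.94 to 6.99, 7.28 and 7.53 (log2 -0.35 ± 0.05, adjusted p = 6.34e-04), with little spread in either group. Racgap1, the partner of Kif23 in centralspindlin, chosen here after its values were seen, had a log2 fold change of -0.05 ± 0.04 (adjusted p = 0.384).

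Smaller falls were called for Kif11, the motor that pushes the spindle poles apart (log2 -0.30 ± 0.10, adjusted p = 0.0424), Kif4, a chromosome-bound kinesin (-0.26 ± 0.07), and Kif2c, a microtubule depolymerase (-0.17 ± 0.06). The scaled counts of Kif11 overlapped between the groups, and it was called under 12 of 19 alternatives. Its adjusted p was 0.0540 or more without HGF 1, HGF 2, Control 1, Control 2 or Control 3, each left out alone (log2 -0.35 to -0.21). Kif2c missed the threshold without HGF 2, HGF 3, Control 1 or Control 2 (adjusted p 0.0516 to 0.147), and Kif4 without Control 2 (adjusted p = 0.0710). Kif14, Kif18a and Kif20a had values of -0.08, -0.36 and -0.11 without a call. Kif18a was called lower without HGF 3 (-0.56, adjusted p = 0.0183), and Kif20a without HGF 1 (-0.15, adjusted p = 0.0492). With library totals Kif14 (-0.18, adjusted p = 0.0273) and Kif20a (-0.21, adjusted p = 0.00879) were called lower, and Kif20a was called under 7 of 19 alternatives. Kif22, a motor that pushes chromosome arms outward, had a value of 0.14 ± 0.06 (adjusted p = 0.0931), and was called higher without HGF 3 (0.22, adjusted p = 0.00848). Kif20a and Cdc23 overlap on opposite strands by 2327 bases, and Kif4 and Pdzd11 by 832. Members of other roles had such overlaps too, among them Ccna2 with Exosc9 (863 bases) and Prc1 with Rccd1 (21810). Nusap1 and Oip5 shared 172 bases, and Cdc20 and Elovl1 shared 53. It is not given whether counting used strand, so reads in those stretches cannot be assigned.

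Kinetochore and centromere genes also differed within complexes. Cenpf, a large protein of the outer kinetochore, had an FPKM of 1.41, 1.49 and 1.75 with HGF and 2.60, 2.55 and 2.96 in controls (log2 -0.71 ± 0.10, adjusted p = 6.05e-04). Ndc80 (ENSMUSG00000024056, chromosome 17, 71496100 to 71526857), the microtubule-binding subunit of the complex named after it, fell from 7.05, 7.94 and 8.33 to 3.76, 4.29 and 5.84 (log2 -0.65 ± 0.15, adjusted p = 0.00769). Both genes had groups that did not overlap, and HGF 3 was again the nearest to the controls. Nuf2, which forms a dimer with NDC80, stood at 8.23, 8.47 and 9.27 with HGF and 9.06, 9.90 and 8.19 in controls, and the groups overlapped (log2 0.03 ± 0.07, adjusted p = 0.770). Of the other pair of subunits, which are not in the set, Spc25 fell with a log2 fold change of -0.87 ± 0.12 (adjusted p = 6.69e-04) and Spc24, chosen here after its values were seen, fell by 0.21 (SE 0.06, adjusted p = 0.0297). Cenpa, the histone variant that marks the centromere, had an FPKM of 19.8, 19.0 and 19.4 with HGF and 22.0, 21.8 and 22.9 in controls. Its groups were apart, but its log2 fold change of -0.10 ± 0.04 missed the threshold (adjusted p = 0.0968). It was called lower under 6 of 19 alternatives, among them library totals (-0.20, adjusted p = 0.00470) and the GC correction (-0.18, adjusted p = 0.0312).

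Of the partners of Aurora B in the chromosomal passenger complex, Birc5, which encodes survivin, fell and Incenp, its scaffold, was not called. Birc5 stood at 36.1, 37.7 and 38.8 with HGF and 45.8, 44.4 and 45.6 in controls, with no overlap (log2 -0.17 ± 0.04, adjusted p = 0.0125). Incenp stood at 30.2, 28.4 and 29.5 with HGF and 32.1, 32.0 and 29.9 in controls. Its log2 fold change was 0.00, with a 95% interval of -0.12 to 0.12.

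Spindle assembly and cytokinesis genes were lower in most cases. Of 5 spindle assembly genes, 4 fell (80%) and 0 rose, where 19.3% of all tested genes fell and 19.1% rose. Without HGF 2, 1 of the 5 fell (20%), where 13% of all tested genes did. Nusap1, a microtubule-bundling protein gene, fell from an FPKM of 22.5, 24.3 and 23.2 to 14.8, 16.5 and 18.2 (log2 -0.41 ± 0.07, adjusted p = 0.00265), and Hmmr, a spindle protein gene, from 11.3, 12.2 and 12.6 to 8.08, 8.27 and 10.1 (log2 -0.36 ± 0.09, adjusted p = 0.0121). Both genes had HGF 3 as the highest HGF library, still below every control. Prc1, which crosslinks midzone microtubules, and Tpx2, the activator of Aurora A, fell by 0.16 (SE 0.04) and 0.15 (SE 0.04). Hmmr and Prc1 missed the threshold without HGF 2 (adjusted p = 0.0509 and 0.0704), and Tpx2 without HGF 1, HGF 2, Control 1 or Control 2 (adjusted p 0.0618 to 0.0950). Dlgap5, a stabiliser of kinetochore fibres, had a value of -0.15 ± 0.09 without a call, and was called lower without HGF 3 (-0.26, adjusted p = 0.0101) and with limma on log2(FPKM + 1) (-0.24, adjusted p = 0.0473). Anln, the actin-binding scaffold of the cleavage furrow, fell from an FPKM of 20.3 ± 1.28 to 15.8 ± 0.556 (SD, n = 3), with groups apart (log2 -0.26 ± 0.05, adjusted p = 0.00326). Ect2, the exchange factor that activates RhoA at the furrow, fell by 0.17 (SE 0.05, adjusted p = 0.0333), and was called under 12 of 19 alternatives. It missed the threshold without HGF 1, HGF 2, Control 1 or Control 2 (adjusted p 0.0777 to 0.127), and with a GC correction it was at -0.06 (adjusted p = 0.338).

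The proliferation markers Mki67 and Top2a were not called with TMM scaling and all libraries. Mki67, which encodes the Ki-67 protein of the mitotic chromosome surface, had an FPKM of 6.29, 7.18 and 9.19 with HGF and 8.66, 10.1 and 11.0 in controls. Top2a, which encodes the topoisomerase that untangles sister chromosomes, stood at 46.7, 51.4 and 59.2 with HGF and 56.4, 64.3 and 60.0 in controls. In both genes HGF 3 lay inside the control range and HGF 1 was the lowest library. Log2 fold changes were -0.30 ± 0.14 and -0.11 ± 0.08 (adjusted p = 0.116 and 0.359), with 95% intervals of -0.68 to 0.08 and -0.34 to 0.13. Mki67 was called lower under 6 of the 19 alternatives, among them without HGF 3 (-0.45, adjusted p = 0.0169), with library totals (-0.40, adjusted p = 0.0470) and with limma on log2(FPKM + 1) (-0.36, adjusted p = 0.0438), and Top2a under 0 of 19 (lowest adjusted p 0.0664).

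Ratios between partner genes within a library do not depend on the scaling. They were computed for 11 pairs chosen after their values were seen, so they are a description, and the groups were apart in 10 of them. The count of Bub1b over that of Bub1 was 4.45, 3.54 and 3.44 with HGF and 2.49, 2.20 and 2.20 in controls. Bub3 over Bub1 was 3.21, 2.49 and 2.38 with HGF and 1.66, 1.48 and 1.52 in controls. The groups were apart in both ratios, with HGF 1 the highest. Cdc20 over Mad2l1 was 4.17, 3.75 and 3.84 with HGF and 2.66, 2.45 and 2.87 in controls, and Nuf2 over Ndc80 was 2.13, 1.93 and 1.55 against 1.25, 1.22 and 0.961. The mean of Cdc25b over Cdc25c was 4.32 ± 0.22 in controls and 6.70 ± 0.36 with HGF (SD, n = 3), and that of Ccnb2 over Ccna2 was 0.682 ± 0.022 and 0.811 ± 0.022. Kif22 over Cenpe was 1.88 times as high with HGF in mean. The means of Ccnb1 over Ccna2, Aurkb over Birc5 and Incenp over Birc5 differed little, at 1.09, 1.10 and 1.13 times the control. Aurka over Tpx2 overlapped between the groups, at 0.721, 0.642 and 0.577 with HGF and 0.581, 0.550 and 0.538 in controls. These ratios show unequal change within a library and not which partner changed.

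**Figure D3:**
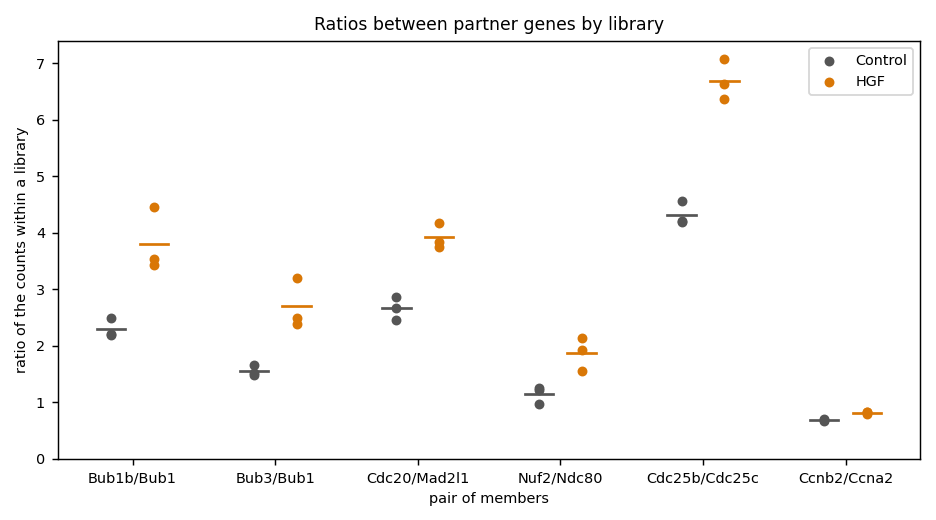
Ratio of the counts of 2 members within each library (points; bars are the means of 3 libraries), for 6 of the 11 pairs computed, all with separate groups, in control (grey) and HGF (orange) libraries. The HGF libraries lie above the controls in these 6 pairs, for example 3.44 to 4.45 against 2.20 to 2.49 for Bub1b over Bub1.

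Members with low levels and AT-rich transcripts had the lower values. Of 14 members with a mean FPKM under 10 over the 6 libraries, 10 fell and 0 rose with edgeR (0 at an unadjusted p under 0.05), and of 16 members with at least 30, 3 fell and 2 rose. Their median log2 fold changes were -0.38 and -0.02. Among all tested genes with a mean FPKM of at least 1, 26.5% fell and 17.1% rose in the low band, and 14.9% fell and 44.7% rose in the high band. In the high band the members' share of lower genes (18.8%) was thus near that of all genes, and their share of higher genes (12.5%) was smaller. In the band from 10 to 30, 8 of 12 members fell and 1 rose, where 23.7% and 27.4% of those genes did. Of 16 members with a transcript GC content under 45%, 12 fell and 0 rose (0 at an unadjusted p under 0.05), and of 11 members with at least 50%, 2 fell and 1 rose. In those bands 31.7% and 21.3% of all tested genes with a mean FPKM of at least 1 fell, and 11.4% and 29.0% rose, so the members' share of lower genes in the GC-rich band (18.2%) was also near that of all genes. From 45% to 50% GC, 7 of 15 members fell and 2 rose, where 23.0% and 24.4% of those genes did. Across the 42 members, Spearman's rho of the log2 fold change was 0.74 with the mean FPKM and 0.67 with GC content, and it was 0.20 and 0.16 across 11607 tested genes with a mean FPKM of at least 1. The members share the libraries and their depth, and their FPKM and GC content were themselves related (rho 0.68), so these are descriptions across genes, which are not independent replicates. With a per-library correction for GC content, 22 members fell and 2 rose, where 21.9% and 18.5% of all tested genes did. Across the members rho was then 0.44 with GC content and 0.65 with the mean FPKM.

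**Figure D4:**
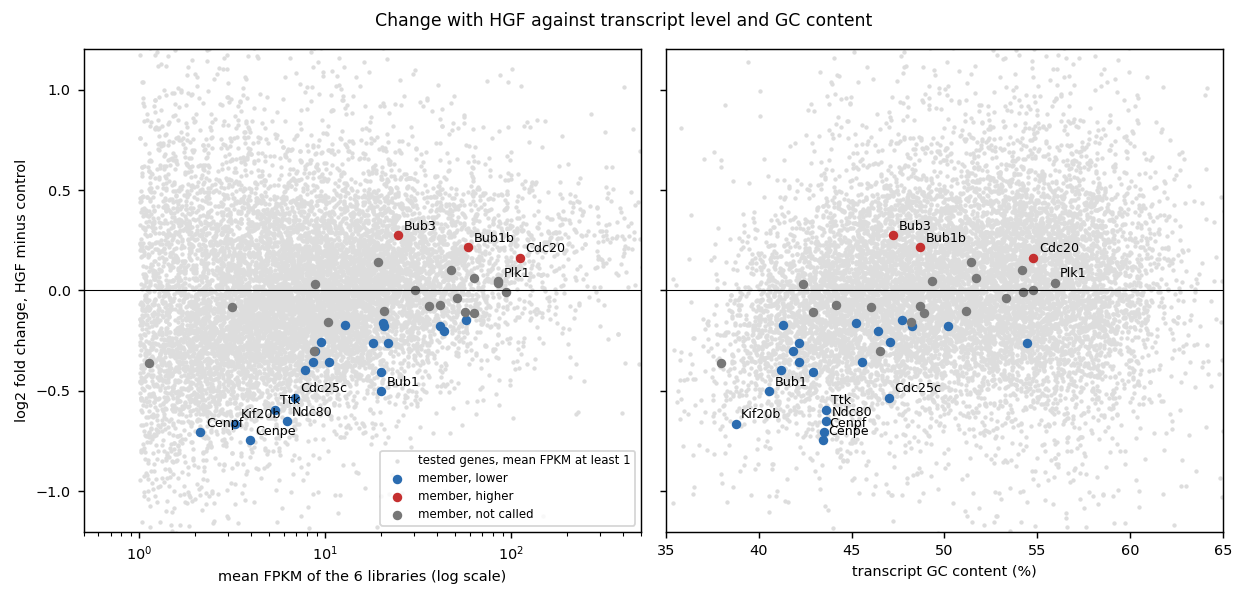
Log2 fold change with HGF (y axis, limited to ±1.2) against the mean FPKM of the 6 libraries (left, log scale) and transcript GC content in percent (right), for the 42 members (coloured by call) over tested genes with a mean FPKM of at least 1 (light grey). The lowest members, such as Cenpe, Cenpf and Kif20b, lie at low FPKM and under 45% GC, while Plk1 and Cdc20 lie at high FPKM and over 50% GC.

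Other genes in lists made for mitosis, which also hold genes of other processes such as Kif3a and Tfdp1, were also lower more often than higher. Of 125 further genes in 5 lists, 56 fell (44.8%) and 13 rose (10.4%), with a median log2 fold change of -0.19, where 19.3% and 19.1% of all tested genes did. The lower count was 36 without HGF 2 (where 13% of all tested genes fell) and 80 with library totals (where 28.5% fell). The higher count was 12 and 8, where 14.2% and 13.6% of all tested genes rose. Kinetochore and checkpoint genes outside the set gave 20 lower and 3 higher of 37, among them Spc25 and Nsl1, a subunit of the MIS12 complex (log2 -0.53 ± 0.07). Pmf1, another subunit of that complex, rose by 0.58 ± 0.05 (adjusted p = 3.88e-05). Condensin and cohesin genes gave 10 lower and 0 higher of 22 with edgeR (1 higher at an unadjusted p under 0.05, and 1 with DESeq2). Their lower count was 4 without Control 2, 5 without HGF 2 and 6 without HGF 1, Control 1 or Control 3. The list was led by the condensin genes Smc4 (-0.51 ± 0.10), Ncapg (-0.44 ± 0.09) and Ncapg2 (-0.30 ± 0.07). Other kinesin and spindle genes gave 11 lower and 1 higher of 22 (7 lower without HGF 2). Kifc1, a minus-end-directed motor, fell by 0.21 (SE 0.04), Spag5, which encodes astrin, by 0.33 (SE 0.05), and Kif3a, a motor of cilium transport, by 0.72 (SE 0.10). The list of mitotic entry regulators, which is broader than its name, gave 11 lower and 6 higher of 27 (17 and 4 with library totals, 7 and 5 without HGF 2). The pocket protein gene Rbl1 fell by 0.51 (SE 0.05) and the centriole gene Cenpj by 1.01 (SE 0.11), and Tfdp1, the dimer partner of E2F factors, rose by 0.42 ± 0.05. Subunits and regulators of the anaphase-promoting complex were near the background, with 4 lower and 3 higher of 17 (6 and 1 with library totals, 2 and 3 without Control 1, and 2 and 2 without Control 2). Without Control 1, 14.9% of all tested genes fell and 16.3% rose, and without Control 2, 13.9% and 14.9% did. Anapc5 and Anapc16 fell by 0.36 (SE 0.04) and 0.39 (SE 0.06), and Cdc16 rose by 0.32 ± 0.05.

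DNA replication genes, transcribed earlier in the cycle, were called higher more often than lower in the same libraries. Of 25, 11 rose and 2 fell, with a median log2 fold change of 0.08 (44.0% and 8.0%, where 19.1% and 19.3% of all tested genes did). With library totals 7 rose and 4 fell (28.0% and 16.0%, where 13.6% and 28.5% of all genes did), and the median turned to -0.02. Mcm3, a subunit of the replicative helicase, rose by 0.57 ± 0.05 from an FPKM of 51.3 ± 3.23 to 71.2 ± 3.54 (SD, n = 3), Uhrf1, which maintains DNA methylation at replication forks, by 0.43 ± 0.04, and Mcm7 by 0.42 ± 0.05. The difference between the replication and mitosis lists was not tested.

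The libraries were close in depth, and their makeup differed in markers of other cells. Total counts ranged from 57073866 (Control 3) to 66302502 (Control 1). The bile duct keratins Krt8 and Krt18 and Spp1 were abundant in all libraries, at mean control FPKM of 392, 197 and 115, whereas the claudin gene Cldn4 had 0 counts in Control 3 and 10 to 30 in the other libraries. Summed skeletal muscle markers (11 genes) summed to 600.1 CPM of the total in Control 3 and to 3.80 to 6.88 in every other library. Macrophage markers (12 genes) summed to 226 CPM in Control 3, 76.9 and 87.0 in the other controls and 119 to 127 with HGF, with 1 or 2 of them at 0 in each library. These sums mix unlike patterns. Cd68 had 4175 to 4541 counts with HGF and 2349 to 2487 in controls, and Cd14 had 1238 to 1431 and 735 to 1054. C1qa, C1qb and C1qc had 0 to 21 counts with HGF, 6 to 23 in Control 1 and Control 2 and 227 to 542 in Control 3. Without Control 3, 20 members fell and 3 rose, where 16.0% and 17.0% of all tested genes did. Hepatocyte markers (10 genes) summed to 21.3 to 38.8 CPM with HGF and 2.28 to 5.69 in controls, and fibroblast markers (11 genes) to 441 to 464 and 106 to 117. The fibroblast sum was led by Col3a1 (20698 to 22513 counts with HGF, 3132 to 4192 in controls) and Col1a1 (5715 to 7305 and 1804 to 2459). Of 9 tested fibroblast markers 6 rose and 0 fell, where 19.1% and 19.3% of all tested genes did. Pdgfra overlapped (391 to 569 counts with HGF, 410 to 494 in controls) and Fap was lower (0 to 16 and 23 to 34). Of the hepatocyte markers, 2 to 5 were at 0 in each control and none in the HGF libraries, and of the fibroblast markers 1 was at 0 in each HGF library and 0 to 2 in each control. The part of these markers in the values of the mitosis genes was not tested.

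**Figure D5:**
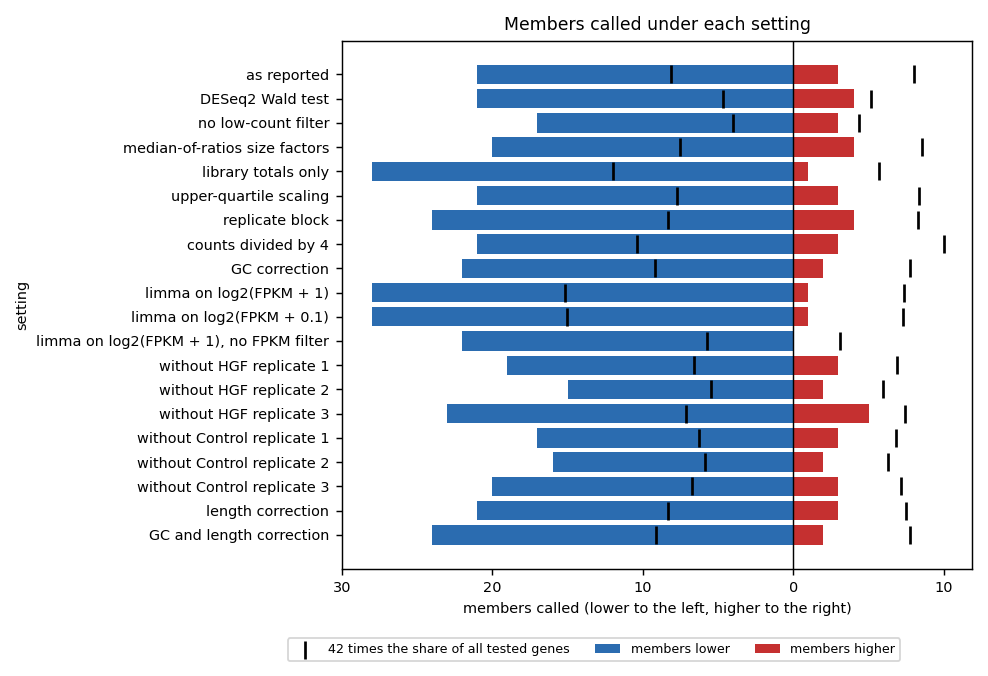
Number of the 42 members called lower (blue, to the left) and higher (red, to the right) under each setting, with black ticks at 42 times the share of all tested genes called in that direction. Lower calls range from 15 to 28 and lie beyond the tick under every setting, and higher calls range from 0 to 5 and lie below it.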

How the data were processed

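RNA of 6 LD-1 libraries was measured by paired-end sequencing of poly(A) RNA (Illumina NovaSeq), per the labels' protocols. The authors deposited a table with a whole-number count and an FPKM per gene and library, per the file headers. The submitters' processing notes name HISAT2 2.0, StringTie 1.3.0, Bowtie 0.12.2 and build mm8, with no roles. The annotation and strand setting were not given in the sources used here. Coordinates are printed as deposited, and 41 of the 42 members have those of GENCODE M21 (GRCm38) exactly.

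Groups came from the sample titles and columns were matched by name. Counts were filtered (filterByExpr), scaled by TMM (factors 0.963 to 0.968 for HGF and 1.03 to 1.04 for controls) and tested with edgeR 4.0.16 in R 4.3.3, two-sided, adjusted by Benjamini-Hochberg over 17322 genes. FPKM lack the TMM scaling, so FPKM ratios of HGF over control are lower than the fitted ratios. The SE is the log2 fold change divided by the square root of F. GC content and length are those of the listed GENCODE M21 transcripts. Alternatives used DESeq2 1.42.0 and limma 3.58.1 on log2(FPKM + pseudocount), other scalings and filters, corrections and left-out libraries. Length corrections were added after seeing the data. The fit was tested on simulated data. All 42 members were named, and of each further list up to 3 genes with the smallest p. The members and lists were chosen with earlier results of these data known. Libraries of a group differed beyond sampling noise (chi-square of 3.04 to 7.75 for each degree of freedom, in counts divided by 4), so none was treated as a duplicate. A count appears to exceed a read pair, so counts overstate molecules. Values of some bile duct markers are not reported here.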

Additional observations from a re-analysis of the deposited data

How the results depend on the processing

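Over all genes, calls stayed within 1.5 times the 6665 reported, from 4893 without HGF 2 to 7302 with library totals. The number of lower members also stayed within 1.5 times of 21 (15 to 28 over all alternatives). The number of higher members, 3 as reported, was 1 with library totals only, 1 with limma on log2(FPKM + 1), 1 with log2(FPKM + 0.1) and 0 with limma and no FPKM filter (1 at an unadjusted p under 0.05), and 4 with DESeq2. The median log2 fold change of the members, -0.17, moved to -0.27, -0.25, -0.26 and -0.25 in the same order. Library totals and FPKM lack the TMM factors, and library totals move all genes alike (median of all genes -0.13). The share of calls that were higher was 49.8% as reported, 32.3% with library totals and 32.7% with limma on log2(FPKM + 1). With 1 library left out at a time, lower members numbered 15 to 23, higher members 2 to 5, all calls 4893 to 6228 and the member median -0.19 to -0.14. With a GC correction 22 members fell and 2 rose, where 21.9% and 18.5% of all tested genes did. With GC and length together the counts were 24 and 2, where 21.8% and 18.5% did.

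Over all tested genes, deviations of same-numbered libraries were hardly correlated (0.06, -0.03 and 0.04). In some members, such as Mki67 and Cenpe, scaled CPM rose from replicate 1 to 3 in both groups. In others, such as Nuf2, it did not. Pairing was not tested for the members alone. With the replicate number as a block, 24 members fell and 4 rose, where 19.9% and 19.7% of all tested genes did. In that fit 6846 genes were called, with a member median of -0.17. The added calls were Kif18a, Kif20a and Mki67 lower (Mki67 -0.31, adjusted p = 0.00340 with edgeR) and Kif22 higher. For single members, 677 of 798 values kept direction and side of the threshold, 41 lost a call, 41 gained one and 39 changed sign without a call in either fit.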
